A study of Mus musculus with 7 samples.

Results

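The mitochondrial carriers were examined as a family of 49 genes among the 19938 genes measured in pancreatic beta cells of weaned and suckling mice. Members were all genes whose symbol begins with Slc25a and that are named by a single-gene probe set of the array (46 genes), together with Ucp1, Ucp3 and Mpc1. The probe set with the highest mean stood for its gene. Ucp2 and Mpc2, which belong to the same set, were not analysed here. The cells came from mice of the outbred ICR background that carried the alleles insulin-Cre and Rosa26-LSL-YFP, the latter a fluorescent reporter that Cre recombinase switches on. Reporter-positive cells, 2000 to 6000 from each mouse, were sorted at postnatal day 25, and each mouse gave 1 array. The 3 weaned mice had been taken from the mother early, at day 18, and the 4 suckling mice of the same genotype and age had not. Every mouse, suckling mice included, carried Cre and the reporter, and the reporter marks any cell in which the insulin promoter was active at some time.

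Most mitochondrial carriers are proteins of the inner mitochondrial membrane and move metabolites, nucleotides, phosphate, amino acids and cofactors between cytosol and matrix. The pyruvate carrier subunit Mpc1 is of a separate protein family. In beta cells the pyruvate that glucose yields enters the matrix, and the export of citrate, malate and glutamate and the exchange of ADP for ATP link its oxidation to insulin release. Weaning replaces fat-rich milk by carbohydrate-rich chow.

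No carrier passed an adjusted p of 0.05 (limma with Benjamini-Hochberg adjustment over all genes), where 3 of all 19938 genes, or 0.015%, did. The smallest adjusted p of the family was 0.37, that of Slc25a23. At an unadjusted p under 0.05 there were 3 carriers, which is 6.12% of the family beside 7.58% of all genes, so the family's share was not above the background. All 3 were lower in weaned mice, a direction that 3.19% of all genes took at that level. They were Slc25a23, Slc25a29 and Slc25a31. These 3 kept their direction in every fit with 1 array left out, but other carriers at this level were higher in some. Those higher were 2 of 5 without weaned replicate 4, 2 of 3 without weaned replicate 5 and 2 of 4 without weaned replicate 12. They were 1 of 4 without suckling replicate 2, 1 of 3 without suckling replicate 9 and none without suckling replicate 11 or 12. In these fits 5.87% to 7.78% of all genes were at this level. The groups of arrays did not overlap for Slc25a23, Slc25a29 and Slc25a47, each with the weaned arrays below (3.43% of all genes did so), and for no carrier with the weaned arrays above (3.9% of all genes). Of the 49 carriers 30 had a higher mean in weaned mice, 61.2% beside 50.1% of all genes, and this number was 26 with quantile normalization and 31 with arrays centred on their medians. The median difference was 0.029 log2 units for the carriers and 0.00047 for all genes, with differences from -0.67 to 0.35 over the family. The spread (pooled SD) of the family's mean level between mice of a group was 0.038 log2 units. Leaving out weaned array 12 took the median to 0.0064 and leaving out weaned array 4 took it to 0.055. It was 0.055 with quantile normalization, 0.063 with arrays centred and 0.061 with array weights, so it lay below that spread in some fits and above it in others. That spread describes single arrays of the values as deposited. It is not a standard error of the median difference, so this comparison is no test. Centring also took the median of all genes to 0.035. For 43 of the 49 carriers the difference moved by over 1.5 times or changed sign when 1 array was left out, a ratio that readily marks differences near 0. The other 6 were Slc25a12, Slc25a23, Slc25a27, Slc25a29, Slc25a31 and Slc25a47.

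**Figure D1:**
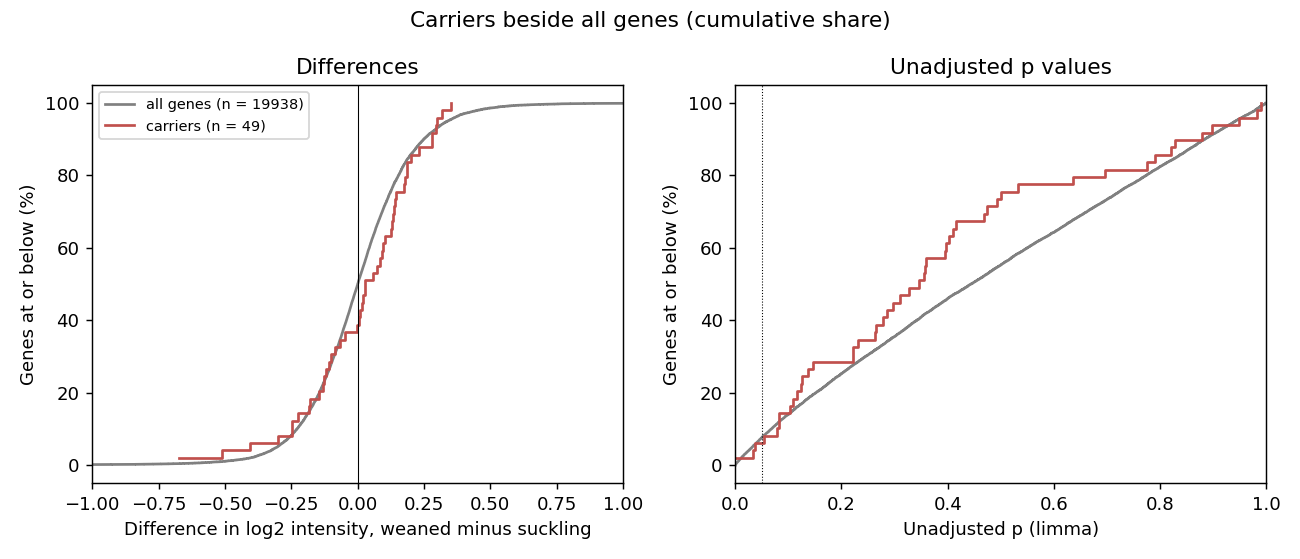
Cumulative share of genes (vertical, %) by difference in log2 intensity between weaned and suckling mice (left, shown from -1 to 1) and by unadjusted limma p (right), for the 49 carriers and all 19938 genes. At an unadjusted p of 0.05, the dotted line, the carriers reach 6.12% and all genes 7.58%.

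These arrays limit what can be seen to differences of moderate size. The standard error of a carrier's log2 difference ran from 0.10 to 0.27 with a median of 0.14. For 48 of the 49 carriers the 95% interval of the difference lay within 1 log2 unit of 0, a 2-fold change in either direction. This is 98.0% of the family beside 97.6% of all genes. The carrier outside was Slc25a31. Within 0.5 lay the intervals of 28 carriers, and those of 12029 of all 19938 genes. As a level of genes taken to be silent in these cells served 1027 olfactory receptor genes, whose mean levels ran from 1.57 to 3.27 log2 units between their 5th and 95th percentiles. Both group means of 7 carriers lay at or below 3.27, namely Slc25a2, Slc25a21, Slc25a33, Slc25a41, Slc25a54, Ucp1 and Ucp3, and 1 group mean of Slc25a31 did. The other 41 lay above in both groups. Ucp1 generates heat in brown fat. Its means were 2.43 in weaned and 2.30 in suckling mice, and 5 of 6 brown fat markers likewise had both means in the silent range.

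The sorted cells carried beta-cell transcripts on every array. All 10 measured beta-cell markers lay above the silent range, and their summed intensity was 15990 to 17860 on weaned and 16950 to 18040 on suckling arrays. Transcripts of other islet hormone cells, glucagon and somatostatin among them, were also strong, with sums of 12900 to 16960 and 12880 to 17680. All 11 measured acinar markers had a lower mean in weaned mice, with sums of 378 to 1112 on weaned and 604 to 3791 on suckling arrays. The groups overlapped for each of them but Bhlha15. Ptf1a differed by only -0.0021, with both means in the silent range. The acinar mean was 4.09, 4.10 and 5.97 log2 units on weaned arrays 4, 5 and 12 and 7.55, 7.28, 4.41 and 5.05 on suckling arrays 2, 9, 11 and 12. Bhlha15, which is counted in the sums and this mean, did not follow that order. It was lowest on weaned array 12 (7.52) and highest on suckling array 11 (8.715), so the low ends of the sums hold much of its signal. Summed duct markers were at 515 to 518 and 458 to 596, while 5 of 8 endothelial, 6 of 9 leukocyte and 5 of 8 stromal markers had both means in the silent range. Immediate early genes of stimulated or dissociated cells had a higher weaned mean for 10 of 12, with sums of 1144 to 2505 against 1080 to 1516. None had an unadjusted p under 0.05 (limma). The mean of this list was 6.125, 6.83 and 5.84 log2 units on weaned arrays 4, 5 and 12. On suckling arrays 2, 9, 11 and 12 it was 5.67, 5.96, 6.18 and 5.99, so only weaned array 5 lay above all suckling arrays. The part of these cells and responses in the carrier values was not tested beyond the covariate fits and the fit without suckling replicates 2 and 9 given here. Fewer cells of a type and less RNA per cell cannot be told apart in such samples.

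The 3 carriers at an unadjusted p under 0.05 are shown here by promoter, from 250 bases before to 50 after the start of the gene, as given by RefSeq for mouse assembly GRCm38.p6. Slc25a23 is on the minus strand at chr17:57059814-57060113, the first of 2 starts listed. Slc25a29 is on the minus strand at chr12:108835827-108836126, and Slc25a31 on the plus strand at chr3:40708621-40708920. Capitals mark the GC box GGGCGG on either strand, a motif of promoters active in many tissues.
Slc25a23: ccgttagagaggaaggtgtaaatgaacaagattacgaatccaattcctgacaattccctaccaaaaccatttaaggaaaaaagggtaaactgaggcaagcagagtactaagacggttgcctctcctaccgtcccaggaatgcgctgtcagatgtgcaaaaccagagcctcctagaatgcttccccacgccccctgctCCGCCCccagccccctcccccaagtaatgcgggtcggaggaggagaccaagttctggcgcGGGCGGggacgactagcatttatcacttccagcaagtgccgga
Slc25a29: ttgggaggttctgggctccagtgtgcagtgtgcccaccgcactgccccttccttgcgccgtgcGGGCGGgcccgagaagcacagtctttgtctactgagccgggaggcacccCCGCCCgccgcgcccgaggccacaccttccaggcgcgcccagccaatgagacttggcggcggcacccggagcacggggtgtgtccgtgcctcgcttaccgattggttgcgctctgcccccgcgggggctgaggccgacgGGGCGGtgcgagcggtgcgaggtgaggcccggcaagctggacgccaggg
Slc25a31: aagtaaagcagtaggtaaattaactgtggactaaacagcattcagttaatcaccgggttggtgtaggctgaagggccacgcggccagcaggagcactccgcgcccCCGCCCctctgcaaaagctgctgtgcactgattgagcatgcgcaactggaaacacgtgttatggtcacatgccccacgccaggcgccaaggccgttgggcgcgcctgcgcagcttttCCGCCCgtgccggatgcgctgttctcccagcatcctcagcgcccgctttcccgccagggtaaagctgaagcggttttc

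The GC box occurs 2 times in the Slc25a23 promoter, 3 times in that of Slc25a29 and 2 times in that of Slc25a31, and none of them holds the letters of the TATA box, TATAAA. This is the common make-up in the family. Of the 49 carriers 39 have a promoter in the RefSeq table, with 50 promoters in all, of which 80% hold GGGCGG on 1 strand or the other, where 35.7% of all 32851 promoters in the table do. TATAAA was found in 4%, in Slc25a18 and Slc25a21, where 13.6% of all promoters hold it. The E-box CACGTG was found in 16%, beside 7.15% of all promoters, and the CCAAT box CCAAT in 46%, beside 37.4%. The cyclic AMP response element TGACGTCA was found in Slc25a25 and Slc25a36, 4% of the promoters beside 1.79%. Each motif was searched on both strands, matches of different motifs could overlap, and so could promoters of a gene with several starts. The median GC content was 59.7% over carrier promoters and 52.7% over all, and the part of base composition in these shares was not tested. These matches describe letters in a window and were not tested as binding sites.

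Slc25a23 had the smallest p of the family. It encodes a calcium-activated carrier that exchanges ATP-Mg for phosphate and so sets the adenine nucleotide content of the matrix. Its level (probe set 10452257) was 5.23, 5.32 and 5.43 log2 units on weaned arrays 4, 5 and 12. On suckling arrays 2, 9, 11 and 12 it was 5.88, 5.89, 5.65 and 5.92, an order of arrays kept for every gene. All weaned arrays lay below all suckling arrays, and the nearest pair was weaned 12 and suckling 11. The means were 5.33 ± 0.10 (SD, n = 3) and 5.84 ± 0.12 (n = 4), a log2 difference (weaned minus suckling, as for all differences) of -0.51 (SE 0.12, 95% interval -0.77 to -0.25) or 1.42-fold lower in weaned mice. By unadjusted p it ranked 79 of 19938 genes (limma, unadjusted p = 0.00154, adjusted p = 0.37). The difference did not pass over all genes and is larger than the SD within either group. With the acinar mean as a covariate the difference was -0.43 (SE 0.13), with the immediate early mean -0.47 (SE 0.13), and without suckling replicates 2 and 9 it was -0.46 (SE 0.14).

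The groups overlapped in the other 3 ATP-Mg carriers. Slc25a25, a calcium-regulated relative, was at 6.06, 5.77 and 5.74 log2 units on weaned arrays and 5.77, 5.84, 5.90 and 5.82 on suckling arrays. The groups overlapped, and the difference was 0.026 (SE 0.12, 95% interval -0.24 to 0.29). Slc25a24 was at 3.44, 4.33 and 3.71 against 3.30, 3.35, 3.81 and 3.73, a difference of 0.28 (SE 0.22), with weaned array 5 above all others. Without that array the difference was 0.027, and with the acinar mean as a covariate it was 0.081. Slc25a41, which lies next to Slc25a23 in gene order, had both means in the silent range (2.85 and 2.82). That Slc25a23 differs from these relatives was not tested.

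**Figure D2:**
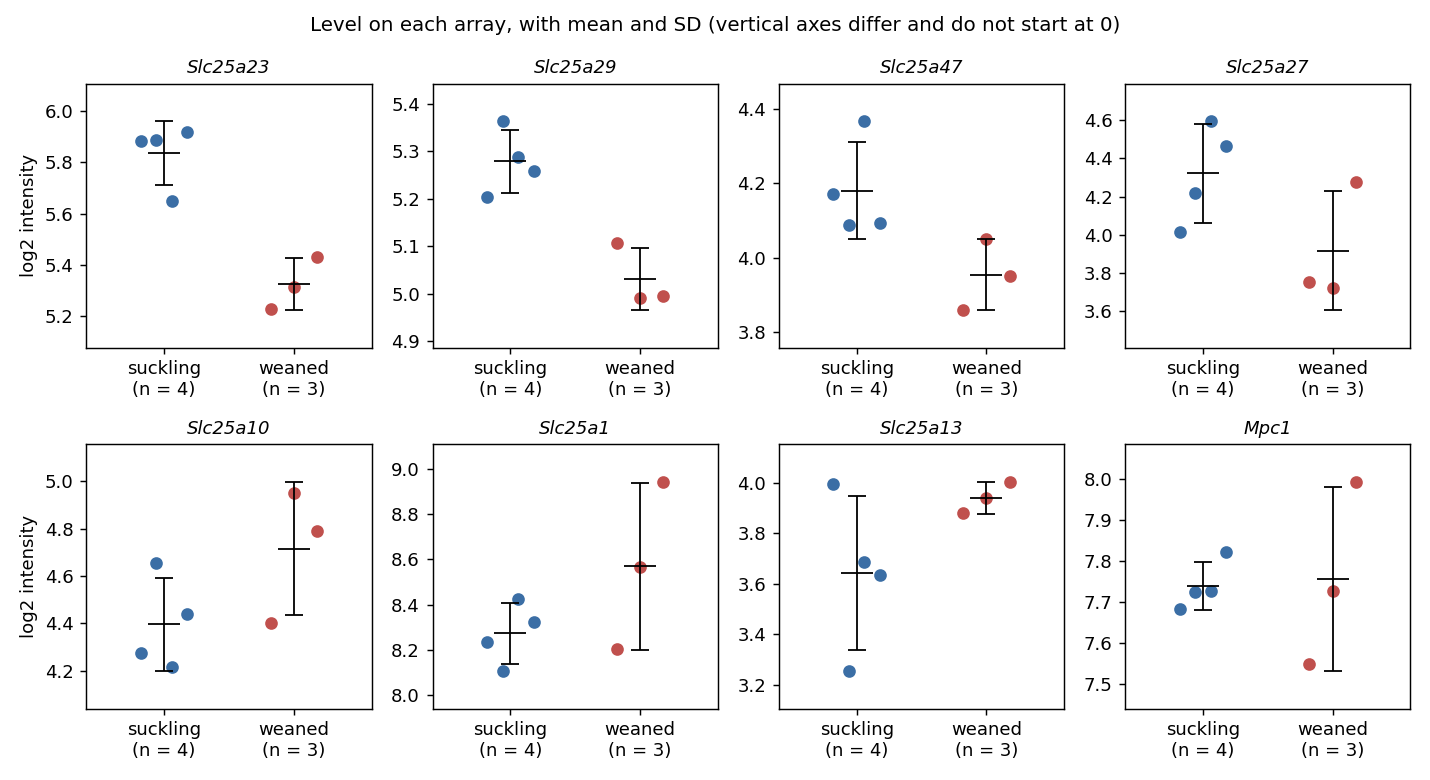
Log2 intensity on each array (vertical, axes not starting at 0) of 8 carriers in suckling (blue, n = 4) and weaned mice (red, n = 3), with the mean and SD in black. Weaned arrays lie below all suckling arrays for Slc25a23, Slc25a29 and Slc25a47, and the groups overlap for the other 5.

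Slc25a29 carries basic amino acids such as arginine and lysine into the matrix. Its level was 5.11, 4.99 and 5.00 log2 units on weaned arrays and 5.20, 5.36, 5.29 and 5.26 on suckling arrays. The groups did not overlap, although weaned array 4 and suckling array 2 were close. The difference was -0.25 (SE 0.10, 95% interval -0.48 to -0.018; limma, unadjusted p = 0.0376, adjusted p = 0.65), or 1.19-fold lower in weaned mice. With 1 array left out the unadjusted p stayed under 0.05 in 3 of 7 fits, with differences of -0.29 to -0.22 over all 7. Slc25a47, a carrier known mainly from liver, is its neighbour in gene order and was at 3.86, 4.05 and 3.95 against 4.17, 4.09, 4.37 and 4.09. These groups also did not overlap, with a narrow gap between weaned array 5 and the lowest suckling arrays, and the difference of -0.23 (SE 0.12) had an interval that spans 0 (-0.49 to 0.036).

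The remaining carriers of amino acids showed overlapping groups. Slc25a44, the carrier of branched-chain amino acids, was at 7.33, 7.47 and 7.21 log2 units on weaned and 7.04, 7.08, 7.25 and 7.24 on suckling arrays, a difference of 0.19 (SE 0.12). The ornithine carrier Slc25a15 differed by 0.17 (SE 0.15) and Slc25a38, which supplies glycine for haem synthesis, by -0.18 (SE 0.17). Slc25a2 had both means in the silent range.

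Among the ADP/ATP and phosphate carriers, which feed and drain the ATP synthase, the somatic forms differed by little. Slc25a5, the widely expressed ADP/ATP carrier, was at 9.50, 9.43 and 9.69 log2 units on weaned and 9.40, 9.52, 9.45 and 9.50 on suckling arrays. Its 3 probe sets gave differences of 0.071, 0.096 and 0.12, which lie within 1 standard error of each other. The probe set used stands, by its number, among probe sets of another chromosome than Slc25a5, as does the one at 0.12, and the one at 0.096 stands among genes of the right chromosome. Slc25a4, the ADP/ATP carrier of heart and muscle, differed by 0.13 (SE 0.11) and Slc25a3, the phosphate carrier, by 0.14 (SE 0.11). The 95% intervals of these 3 genes ended at 0.32, 0.39 and 0.39 log2 units.

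Slc25a31, the ADP/ATP carrier of the testis, varied widely among suckling mice. It was at 2.98, 2.62 and 2.47 log2 units on weaned arrays, all in the silent range, and at 3.82, 2.67, 3.77 and 3.21 on suckling arrays. Suckling arrays 2 and 11 were above the silent range and suckling array 9 was among the weaned values. The difference of -0.67 (SE 0.27, 95% interval -1.28 to -0.068; limma, unadjusted p = 0.0328, adjusted p = 0.63) thus has a weaned mean at background. With 1 array left out it ran from -0.91 without suckling replicate 9 to -0.52 without suckling replicate 2. The unadjusted p was no longer under 0.05 without suckling replicate 2 or 11 or weaned replicate 5 or 12, where the differences were -0.52, -0.54, -0.64 and -0.57.

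The pyruvate carrier subunit Mpc1 did not separate the groups. It was at 7.55, 7.73 and 7.99 log2 units on weaned arrays and 7.68, 7.72, 7.73 and 7.82 on suckling arrays, and the weaned arrays spanned the suckling ones. The difference was 0.017 (SE 0.13, 95% interval -0.27 to 0.30). Its only probe set (10402648) stands among 20 neighbouring probe set numbers that all belong to 1 other chromosome, while for 47 of the 49 carriers the probe set and its neighbours share the chromosome of the gene. Probe set numbers are grouped by chromosome on this array, with 94.3% of adjacent numbers on the same one. The value of Mpc1, like that of Slc25a5, is therefore uncertain, since a near-identical copy elsewhere could share the probe set.

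Carriers of citrate and dicarboxylates, which export carbon from the matrix, had mostly higher weaned means with overlapping groups. Slc25a1, the citrate carrier, was at 8.20, 8.57 and 8.94 log2 units on weaned and 8.23, 8.11, 8.43 and 8.32 on suckling arrays. Weaned arrays 5 and 12 were above all suckling arrays, and weaned array 4 was not. The difference was 0.30 (SE 0.17, 95% interval -0.089 to 0.68), which became 0.11 when weaned array 12 was left out and 0.48 when weaned array 4 was. Slc25a10, the dicarboxylate carrier, was at 4.40, 4.95 and 4.79 against 4.28, 4.66, 4.21 and 4.44, a difference of 0.32 (SE 0.16). Slc25a11, which exchanges oxoglutarate for malate, was at 7.47, 7.07 and 7.28 against 7.36, 7.39, 7.35 and 7.34, a difference of -0.085 (SE 0.12). The 4 suckling arrays were nearly level for Slc25a11 (SD 0.023), and the weaned arrays lay on both sides of them. Slc25a21, the oxoadipate carrier, had both means in the silent range.

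The aspartate-glutamate carriers complete the malate-aspartate shuttle, which brings the reducing power of cytosolic NADH into mitochondria. Slc25a12 (aralar) was at 7.73, 7.89 and 7.98 log2 units on weaned and 7.71, 7.58, 7.60 and 7.77 on suckling arrays, a difference of 0.20 (SE 0.11, 95% interval -0.053 to 0.45). Its liver-type relative Slc25a13 (citrin) was at 3.88, 3.94 and 4.00 against 3.99, 3.25, 3.69 and 3.63, a difference of 0.30 (SE 0.16). Weaned arrays were high for both genes, yet suckling array 12 reached the weaned range for Slc25a12 and suckling array 2 for Slc25a13. The glutamate carrier Slc25a22 was at 5.37, 5.69 and 5.48 against 5.33, 5.73, 5.89 and 5.55, a difference of -0.11 (SE 0.15), and its relative Slc25a18 differed by 0.020 (SE 0.12).

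**Figure D3:**
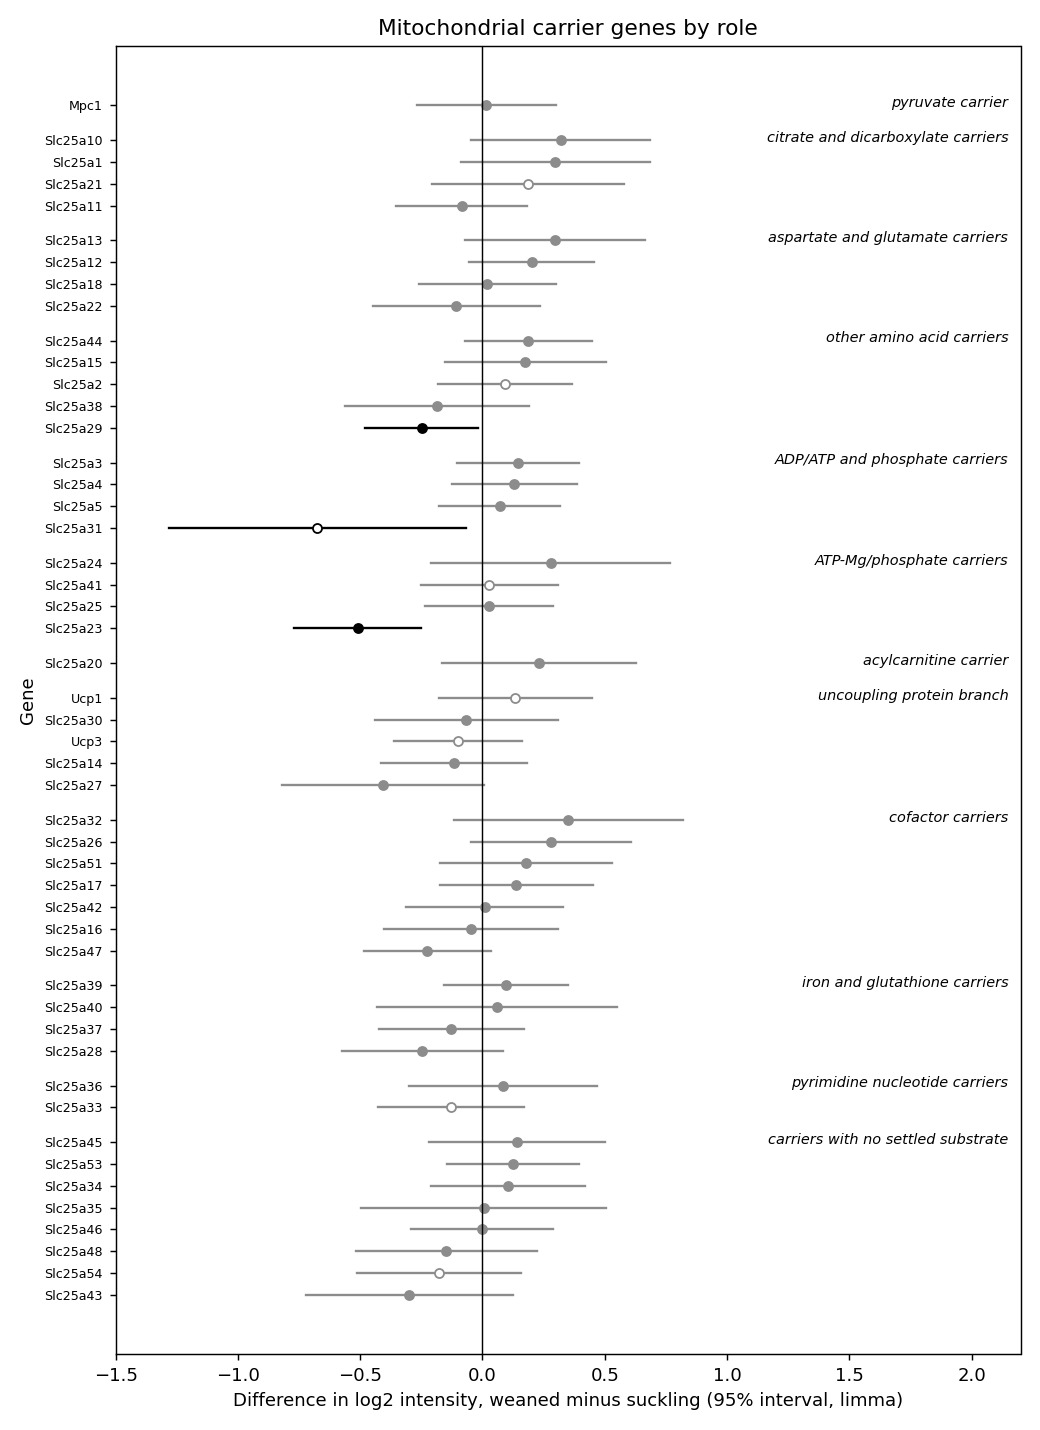
Difference in log2 intensity between weaned and suckling mice (horizontal) with its 95% interval for each of the 49 carriers, grouped by role. Black marks the 3 carriers at an unadjusted p under 0.05 and open circles the 8 with a group mean in the silent range, and all black intervals lie below 0.

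Slc25a20 brings acylcarnitines into the matrix for fatty acid oxidation. It was at 5.19, 4.46 and 4.80 log2 units on weaned and 4.64, 4.54, 4.79 and 4.38 on suckling arrays. Weaned array 4 stood above the others, and the difference of 0.23 (SE 0.18) became 0.044 when that array was left out and 0.41 when weaned array 5 was.

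In the branch of the uncoupling proteins, 4 of 5 measured genes had a lower weaned mean. Slc25a27, an uncoupling protein relative of nerve cells, was at 3.75, 3.72 and 4.27 log2 units on weaned and 4.01, 4.22, 4.59 and 4.46 on suckling arrays. Weaned array 12 overlapped the suckling range, and the difference was -0.41 (SE 0.18, 95% interval -0.82 to 0.0073). Slc25a14 was at 5.89, 5.72 and 5.78 against 5.70, 6.14, 5.81 and 6.02, a difference of -0.12 (SE 0.13), and Slc25a30 differed by -0.067 (SE 0.17). Ucp3, the uncoupling protein of muscle, had both means in the silent range.

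Cofactor carriers had a higher weaned mean in 5 of 7 cases, the exceptions being Slc25a16 and Slc25a47, which is counted here as a proposed NAD carrier. The folate and FAD carrier Slc25a32 was at 6.41, 5.75 and 5.47 log2 units on weaned and 5.30, 5.67, 5.55 and 5.58 on suckling arrays. Its difference of 0.35 (SE 0.21), the highest in the family, was 0.082 without weaned replicate 4. Slc25a26, which imports S-adenosylmethionine, differed by 0.28 (SE 0.15). Slc25a17, a peroxisomal member of the family, was at 8.19, 8.23 and 7.82 against 7.74, 8.03, 7.97 and 8.03, a difference of 0.14 (SE 0.14). The NAD carrier Slc25a51 differed by 0.18 (SE 0.16), which became 0.055 when weaned array 4 was left out and 0.35 when weaned array 5 was. Slc25a42, a coenzyme A carrier, differed by 0.0092 (SE 0.14), and Slc25a16 by -0.046 (SE 0.16). The groups overlapped in all of these 6.

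Iron, glutathione and pyrimidine nucleotide carriers had differences on both sides of 0. The glutathione carrier Slc25a39 was at 7.97, 7.97 and 8.02 log2 units on weaned and 7.97, 7.98, 7.91 and 7.70 on suckling arrays, a difference of 0.096 (SE 0.11). Its relative Slc25a40 differed by 0.059 (SE 0.22). The mitoferrins Slc25a37 and Slc25a28, which import iron, differed by -0.13 (SE 0.13) and -0.25 (SE 0.15), and the groups overlapped in both. Without weaned array 5 these differences were -0.23 and -0.087. Slc25a36, a pyrimidine nucleotide carrier, was at 7.45, 6.94 and 7.58 against 7.48, 7.05, 7.25 and 7.17, a difference of 0.084 (SE 0.17). Its dimmer probe set gave 0.42 (SE 0.14). The probe sets of Slc25a36 thus disagree in size, and the dimmer one stands among probe set numbers of another chromosome than the gene. Slc25a33 had both means in the silent range.

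Of the 8 carriers with no settled substrate, 4 had a higher and 4 a lower weaned mean. Slc25a46, an outer-membrane protein that shapes mitochondria, was at 6.58, 6.70 and 6.88 log2 units on weaned and 6.50, 6.78, 6.75 and 6.85 on suckling arrays, a difference of -0.0016 (SE 0.13, 95% interval -0.29 to 0.29). Slc25a35 was at 5.35, 5.75 and 5.84 against 5.28, 5.38, 5.70 and 6.20, so it varied by 0.91 between arrays with a difference of 0.0050 (SE 0.22). Slc25a43 differed by -0.30 (SE 0.19), with suckling array 2 at 4.36 above all other arrays. Slc25a34, Slc25a45, Slc25a48 and Slc25a53 differed by -0.15 to 0.14, and Slc25a54 had both means in the silent range.

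**Figure D4:**
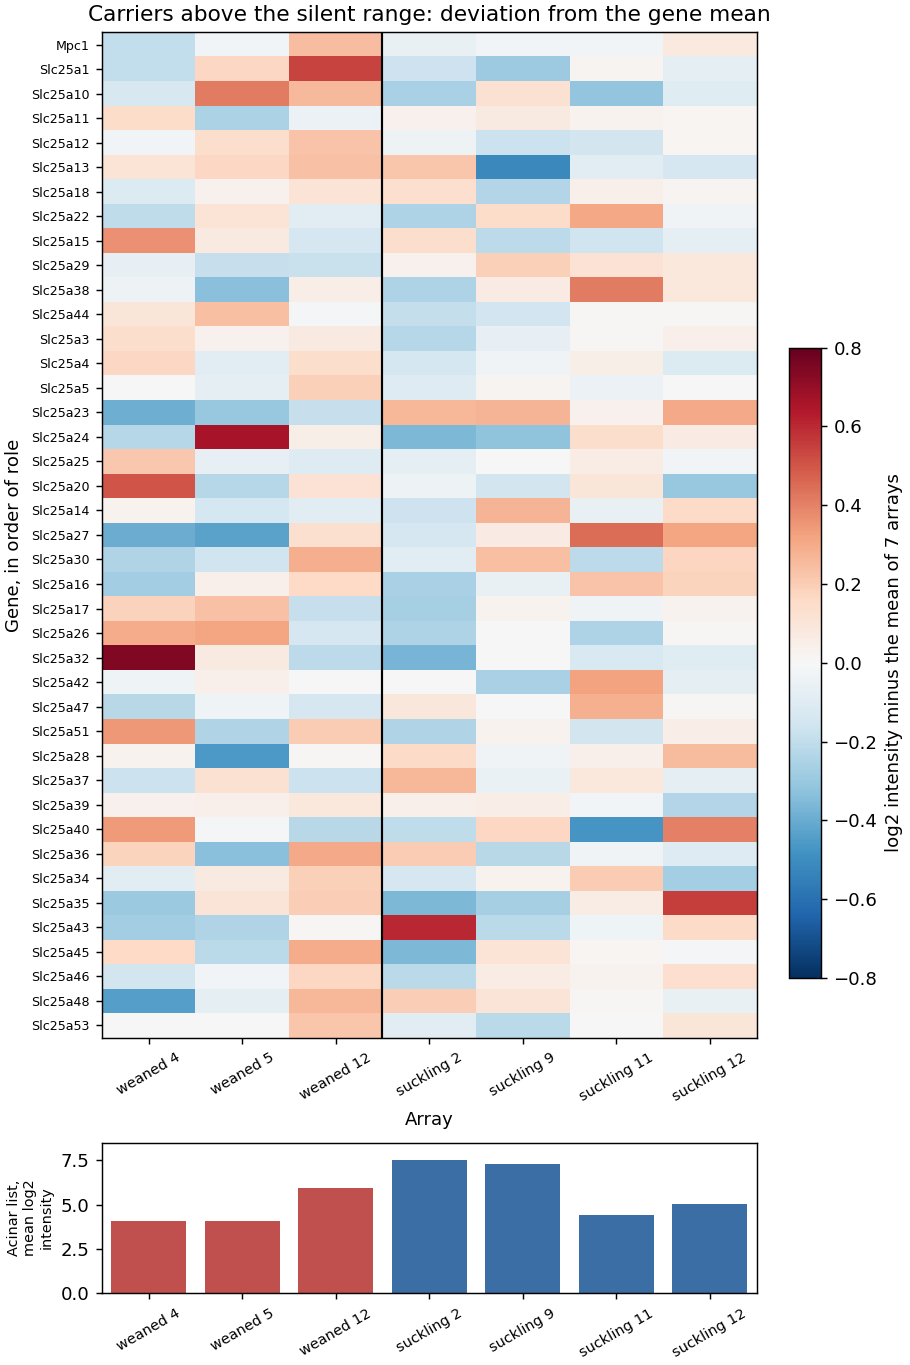
Deviation of each of the 41 carriers above the silent range (rows, in order of role) from its mean over the 7 arrays, in log2 units (colour), with the mean level of the acinar markers on each array below. Slc25a23, Slc25a29 and Slc25a47 are each below their mean on all 3 weaned arrays and above it on all 4 suckling arrays. Single arrays stand out for Slc25a32 (weaned 4) and Slc25a43 (suckling 2).

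Genes that work with the carriers were also read from lists chosen by function. Of 12 measured components of the import route that inserts carriers into the inner membrane, 5 had a higher and 7 a lower weaned mean, with a median difference of -0.039. None had an unadjusted p under 0.05. The smallest p values belonged to Tomm22, a receptor of the outer-membrane translocase (0.17, SE 0.10), and Timm13, an intermembrane-space chaperone (0.18, SE 0.13). Of 6 enzymes of the NADH shuttles, 3 were higher and 3 lower in mean (median 0.0095). The malate dehydrogenases gave 0.20 (SE 0.12) for the matrix form Mdh2 and -0.17 (SE 0.13) for the cytosolic form Mdh1.

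Of 12 measured enzymes of pyruvate and citrate cycling, 10 had a higher weaned mean (median 0.077), beside 50.1% of all genes. The exception with an unadjusted p under 0.05 was Acly, which cleaves the citrate that Slc25a1 exports. It was at 10.54, 10.40 and 10.07 log2 units on weaned and 10.66, 10.66, 10.66 and 10.79 on suckling arrays. All weaned arrays lay below all suckling arrays, with a difference of -0.35 (SE 0.13; limma, adjusted p = 0.62). Weaned array 12, the lowest for Acly, was the highest for Slc25a1. Suckling arrays 2, 9 and 11 were level for Acly, while Slc25a1 was at 8.23, 8.11 and 8.43 on them. A relation between these genes was not tested. Of 19 other mitochondrial transporters, 10 were higher and 9 lower in mean (median 0.0021). Among them Tspo, an outer-membrane protein of cholesterol transport, was at 6.72, 6.52 and 6.54 on weaned and 5.71, 6.04, 6.51 and 6.38 on suckling arrays, a difference of 0.44 (SE 0.19; limma, adjusted p = 0.65). Its groups did not overlap, although suckling array 11 nearly reached the weaned level. Nor did those of the cycling enzyme Me3, with the weaned arrays above (0.17, SE 0.10). Of all genes 3.9% had the weaned arrays above and 3.43% below. No gene of these 4 lists passed an adjusted p of 0.05. At an unadjusted p under 0.05 (limma) there were 1 of 12 cycling enzymes, 1 of 19 other transporters and none of the other lists. For all genes the share was 7.58%.

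**Figure D5:**
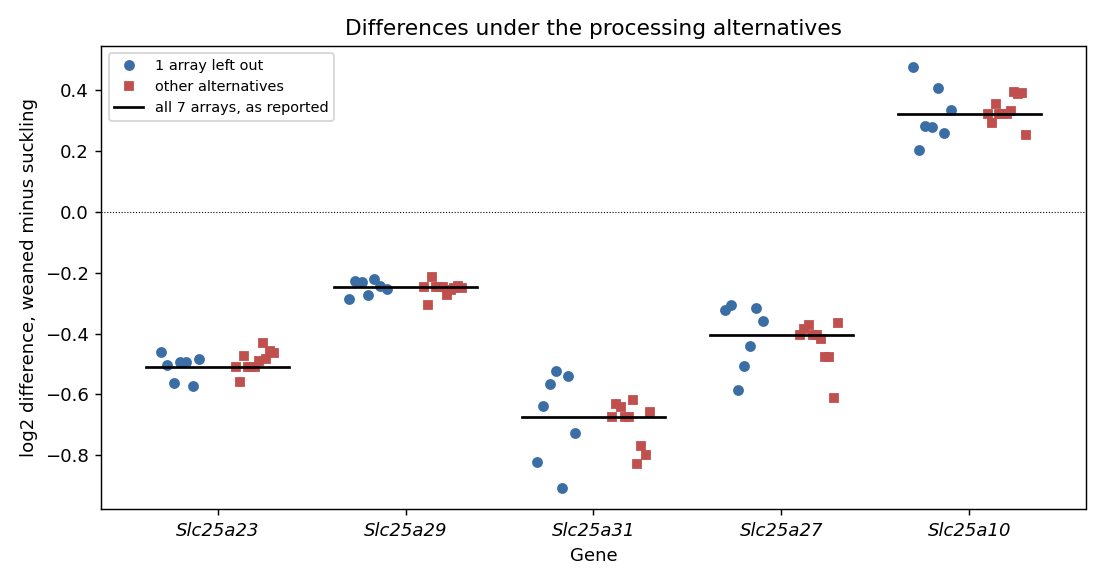
Log2 difference between weaned and suckling mice (vertical) for 5 carriers as reported (black line), with each array left out in turn (blue circles) and under the other processing alternatives (red squares). Slc25a23 stays between -0.57 and -0.43, and none of the 5 changes sign in these fits.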

How the data were processed

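RNA of sorted cells of 7 mice, 1 array each, had been isolated by RNeasy micro columns and amplified before labelling (Ovation Pico), per the labels' protocols. The submitters' processing notes name RMA and Partek 6.6, without settings, for the intensity values the authors deposited. They run from 1.445 to 12755, a linear scale, so log2 was taken. RMA draws differences of dim probe sets towards 0. Of 35556 probe sets 21789 carry 1 gene symbol, 1621 several and 12146 none. Single-gene probe sets were reduced to 19938 genes by the brightest probe set, with no filter on dim genes, and 0 value columns were left out.

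Groups were compared with limma 3.58.1 in R 4.3.3 (lmFit, eBayes, no covariate, two-sided) and Benjamini-Hochberg adjustment over all genes at 0.05. The labels do not say whether mice were littermates. The array descriptions carry 1 code for the weaned and another for the suckling arrays, which cannot be told apart from weaning. All 49 members could be named. Those with an unadjusted p under 0.05, the brightest of each of 12 roles and a fixed set were given on every array, as were others, such as Slc25a27 and Slc25a47, chosen after their values were seen. From each list of partner genes those at an unadjusted p under 0.05 were named, or else the 2 with the smallest p. Me3 was added because its groups did not overlap. The members, roles and lists were chosen with earlier results of these data known. Marker lists covered beta, other islet hormone, acinar, duct, endothelial, leukocyte, stromal and brown fat cells and immediate early genes. The script was tested on simulated data.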

Additional observations from a re-analysis of the deposited data

Results flagged for a closer look

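Slc25a23 was marked because suckling array 11, at 5.65 log2 units, stood apart from the other suckling arrays at 5.88 to 5.92. Without it the difference was -0.57 in place of -0.51. Ucp1 was marked because suckling array 11, at 2.60, stood apart from the others at 2.17 to 2.22, and all these values lie in the silent range. The rule compares the gap of the highest or lowest of 4 suckling arrays with their whole range, and chance marks about 1 in 20 genes, and 49 were looked at.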

How the results depend on the processing

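No paired analysis was possible because the groups share only 1 replicate number. No carrier passed an adjusted p of 0.05 in any of the 18 alternatives. Slc25a23 kept its direction and an unadjusted p under 0.05 in all 18 (-0.57 to -0.43, adjusted p from 0.23 to 0.90). Slc25a29 did so in 6 of 18, Slc25a31 in 11 of 17 and Slc25a27 in 7 of 17, all with their direction kept. Of the 49 carriers 35 kept their direction throughout, and the other 14, Mpc1, Slc25a5, Slc25a11, Slc25a25 and Slc25a36 among them, changed sign in at least 1 fit.

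Over all genes, 3 calls became 7 at an adjusted p under 0.1, 9 with an intensity trend and robust prior, 5 with quantile normalization, 6 with arrays centred on their medians, 7 when the dimmest 25% of genes were dropped, 8 when all genes under the median level were, 5 when probe sets of a gene were averaged, 1 with the other islet hormone covariate and 0 without suckling replicates 2 and 9, where 1089 genes had an unadjusted p under 0.05 by limma. With 1 array left out they were 1 to 3, at 1 without weaned replicate 4 or 5 or suckling replicate 9, 11 or 12. The filter at the median left 29 carriers, 19 of them higher, with a median of 0.071 and 1 at an unadjusted p under 0.05. All genes left by that filter had a median of 0.038, and 9.11% of them had an unadjusted p under 0.05 (limma). The count of carriers at that level was 1 with the immediate early covariate, an alternative chosen after seeing the data, beside 5.78% of all genes. With 1 array left out it was 1 to 5, at 5 without weaned replicate 4 and 1 without suckling replicate 11. The shares of all genes at that level were 7.78% without weaned replicate 4 and 7.45% without suckling replicate 11. Centring moved the median of all genes by 0.035 and left 31 carriers higher. Apart from the smaller number of genes or arrays, the cause of these moves was not tested.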

Other observations

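Pairs of carriers that are neighbours in gene order, with no protein-coding gene between them in RefSeq, numbered 4. Slc25a29 and Slc25a47 were lower in mean in weaned mice (-0.25 and -0.23), each with groups that did not overlap. In the other pairs the members differed in direction or size, with Slc25a41 at 0.029 and Slc25a23 at -0.51, Slc25a54 at -0.18 and Slc25a24 at 0.28, and Slc25a43 at -0.30 and Slc25a5 at 0.071. The Slc25a5 value is from a probe set numbered among those of another chromosome, and its probe set numbered in place gave 0.096. Both members had a level above the silent range in the first and last pairs. This was looked up after the values were seen and was not tested.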
